A study of Rattus norvegicus with 24 samples.

Results

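Vitamin A reaches brain cells as retinol and acts there as retinoic acid, and the 7 genes described here, Rbp4, Stra6, Aldh1a2, Crabp1, Crabp2, Cyp26b1 and Rarb, cover its carriage, uptake, synthesis, binding, breakdown and reception. They were chosen by symbol from the 13841 genes listed in both deposited count tables, and all 7 were read in all 24 libraries. The libraries came from the hypothalamus of Sprague Dawley rat pups killed at PN10, with no transgene or drug in any group. The dams ate a control diet with 12% of digestible energy from lipids (offspring named CON-O) or a high fat diet with 43% (HFD-O) from before mating until the pups were taken, and there were 6 libraries of each diet in each sex, with total counts of 6132112 to 7994399. Libraries are named by the submitters' number, odd in males and even in females, with 1 to 12 in CON-O and 13 to 24 in HFD-O. There were 6 control litters for the 12 CON-O libraries, and the high fat diet litters were also fewer than the 12 HFD-O libraries. Some libraries of each diet therefore shared a litter. The litter of each pup was not known, and the tests below treat libraries as independent unless a correlation is named.

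The members fell into groups by how they varied between pups of the same sex and diet. Aldh1a2, Rbp4, Crabp2 and Cyp26b1 varied together, all 6 of their pairs having a Pearson r of 0.671 to 0.880, and they varied with marker genes of the leptomeninges, the thin membranes on the brain surface. Crabp1, Stra6 and Rarb did not pass the test of covariation with any other member. None of the 7 passed the genome-wide test for maternal diet in females, in males or over both sexes. The mean levels of Aldh1a2, Crabp2, Cyp26b1, Rbp4 and Rarb were higher in HFD-O than in CON-O in each sex, and the estimate for Aldh1a2 was the largest of them.

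Retinol travels in blood bound to the product of Rbp4 and can enter cells through the membrane receptor encoded by Stra6. Inside cells retinol is oxidised to retinaldehyde and then, by enzymes such as that encoded by Aldh1a2, to retinoic acid. Crabp1 and Crabp2 encode small proteins that hold retinoic acid in the cytoplasm, Crabp2 being known for passing it to nuclear receptors, and Cyp26b1 encodes a cytochrome P450 that breaks it down. Rarb encodes one of those receptors, which with a retinoid X receptor binds repeated half-sites in DNA. Aldh1a2 is known from rodents as a gene of the meninges, and retinoid signalling in the rodent hypothalamus is known for its part in seasonal control of feeding and body weight.

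All 7 genes matched a RefSeq promoter window on GRCr8, a later build than the rn6 of the submitters' notes, and 3 windows are shown as the one with a complete repeat (Rarb), the one with a single half-site (Stra6) and that of the gene with the widest range of level (Aldh1a2). Each runs 5′ to 3′ on the gene's own strand, from 250 bases before the annotated start through the first 50 bases from it, and capitals mark the repeat in the Rarb window and the single half-site in the Stra6 window. The window of Rarb lies at chr15:11336142-11336441 (plus strand), that of Stra6 at chr8:67444507-67444806 (plus strand) and that of Aldh1a2 at chr8:80758391-80758690 (plus strand).
Rarb: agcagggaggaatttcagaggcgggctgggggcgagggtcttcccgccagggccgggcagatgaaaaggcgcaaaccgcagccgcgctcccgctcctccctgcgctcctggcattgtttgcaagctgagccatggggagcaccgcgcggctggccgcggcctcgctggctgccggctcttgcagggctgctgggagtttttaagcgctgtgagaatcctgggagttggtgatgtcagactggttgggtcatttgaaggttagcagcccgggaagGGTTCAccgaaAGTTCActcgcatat
Stra6: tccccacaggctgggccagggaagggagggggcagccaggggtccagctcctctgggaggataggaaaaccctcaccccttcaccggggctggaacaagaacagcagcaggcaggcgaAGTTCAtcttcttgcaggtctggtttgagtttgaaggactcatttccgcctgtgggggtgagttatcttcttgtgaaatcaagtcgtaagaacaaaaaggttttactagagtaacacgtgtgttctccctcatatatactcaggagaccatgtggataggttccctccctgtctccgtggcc
Aldh1a2: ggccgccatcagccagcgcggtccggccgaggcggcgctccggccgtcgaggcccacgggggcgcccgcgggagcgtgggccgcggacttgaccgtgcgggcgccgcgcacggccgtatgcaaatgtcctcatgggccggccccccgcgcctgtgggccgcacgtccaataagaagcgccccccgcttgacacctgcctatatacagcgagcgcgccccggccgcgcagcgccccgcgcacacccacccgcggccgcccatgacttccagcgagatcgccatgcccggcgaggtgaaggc

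The half-sites searched, on both strands, were the word AGGTCA, its form AGTTCA, its form GGGTCA and lastly its form GGTTCA, searched singly or as direct repeats of any of them with a gap of 1, 2 or 5 bases, and overlaps between matches were allowed. The Rarb window held a direct repeat with a gap of 5 bases, with GGTTCA as the left and AGTTCA as the right half-site, which begins at base 25 counted from the annotated start, and it held 3 half-sites in all, of which the one outside the repeat is in lower case. Repeats with that gap were found in 128 of 33469 windows (0.382%), those with a gap of 1 in 78 (0.233%) and those with a gap of 2 in 57 (0.17%). The Stra6 window held 1 half-site, as at least 1 is present in 44.4% of all windows. In the windows of Aldh1a2, Crabp1, Crabp2, Cyp26b1 and Rbp4 no half-site of these letters was found. The GC content of the windows was 76.0% for Aldh1a2, 71.7% for Rbp4, 70.7% for Crabp1, 63.0% for Rarb, 61.0% for Crabp2, 53.7% for Stra6 and 52.7% for Cyp26b1, against a median of 51.7% over all windows.

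Levels are given as CPM, the counts of a gene for every 1000000 counts of its library, after scaling of library sizes by the trimmed mean of M-values (TMM). They are not per length, so a gene is compared only with itself across libraries. Rbp4, the retinol carrier, lay at 7.73 to 17.1 CPM in female CON-O (median 8.36) and at 6.51 to 24.0 CPM in female HFD-O (median 16.6). In males it lay at 8.05 to 28.6 CPM in CON-O (median 9.45) and at 7.83 to 41.9 CPM in HFD-O (median 12.0). The diet groups overlapped in both sexes, and 1 library stood far above the rest in each male group, CON-O 1 at 28.6 CPM and HFD-O 23 at 41.9 CPM. The mean was 10.6 ± 3.93 in CON-O and 15.3 ± 6.16 in HFD-O females (SD, n = 6 each), and 12.8 ± 7.98 and 17.2 ± 12.8 in males. The log2 fold change of HFD-O over CON-O was 0.55 (SE 0.26, adjusted P = 0.705) in females and 0.43 (SE 0.40, adjusted P = 0.967) in males by the quasi-likelihood test of edgeR, which gives every SE and adjusted P below unless another test is named. Without HFD-O 23 the male value was −0.07 and without CON-O 1 it was 0.85, so single libraries set its size and sign.

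Stra6, the receptor that takes up retinol from the carrier, lay at 4.70 to 9.66 CPM in female CON-O (median 6.96) and 4.22 to 8.62 CPM in female HFD-O (median 5.50). In males it lay at 5.31 to 9.21 CPM in CON-O (median 5.60) and 3.68 to 9.36 CPM in HFD-O (median 7.33). The ranges overlapped almost wholly, and CON-O 9 at 9.21 CPM stood apart among males, the next control being at 6.03 CPM. The log2 fold change was −0.26 (SE 0.20, adjusted P = 0.816) in females and 0.16 (SE 0.22, adjusted P = 0.979) in males. The difference between the sexes was 0.42 (SE 0.31).

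Aldh1a2, which makes retinoic acid from retinaldehyde, had the widest range of the members, from 0.805 to 30.4 CPM over the 24 libraries (37.8-fold, from 5 to 247 counts). In female CON-O it lay at 0.805 to 6.98 CPM with a median of 1.64, and in female HFD-O at 0.814 to 18.3 CPM with a median of 12.5. Of the 6 female HFD-O libraries 4 were above the highest CON-O library, while HFD-O 20 was as low as the lowest CON-O library. In males it lay at 1.05 to 14.9 CPM in CON-O (median 2.89) and 1.53 to 30.4 CPM in HFD-O (median 6.49), and 2 of the latter exceeded every control. The mean in females was 2.42 ± 2.27 in CON-O and 10.8 ± 7.26 in HFD-O (SD, n = 6 each), and in males 5.09 ± 5.28 and 11.0 ± 11.0. The log2 fold change was 2.15 in females (SE 0.56, 4.44-fold, adjusted P = 0.244) and 1.11 in males (SE 0.64, 2.16-fold, adjusted P = 0.957). Over both sexes it was 1.63 (SE 0.48, adjusted P = 0.150), and the difference between the sexes was −1.04 (SE 0.98). Single libraries moved the male estimates: without HFD-O 23 it was 0.47 for Aldh1a2, 0.31 for Crabp2 and 0.33 for Cyp26b1, and without CON-O 1 it was 1.82, 1.16 and 0.85. With edgeR's likelihood ratio test the female value of 2.14 had an adjusted P of 0.0492, so the call for this gene in females depends on the test.

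Crabp1, one of the binding proteins of retinoic acid, ranged from 13.4 to 29.6 CPM over all libraries (88 to 191 counts). Its medians were 21.8 CPM in female CON-O (16.4 to 25.1), 21.3 in female HFD-O (19.6 to 29.6), 21.9 in male CON-O (15.5 to 25.4) and 17.4 in male HFD-O (13.4 to 25.3). All 4 groups overlapped. The log2 fold change was 0.13 (SE 0.12, adjusted P = 0.849) in females and −0.19 (SE 0.15, adjusted P = 0.960) in males.

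Crabp2, the binding protein that passes retinoic acid to the receptors, ranged 9.03-fold over the libraries. It lay at 1.57 to 8.04 CPM in female CON-O (median 3.56) and 2.69 to 13.3 CPM in female HFD-O (median 8.42), and at 1.68 to 10.1 CPM in male CON-O (median 3.28) and 2.90 to 14.2 CPM in male HFD-O (median 5.77). Among females 4 of 6 HFD-O libraries were above every CON-O library and the remaining HFD-O libraries, 16 and 20, were at 2.69 and 2.77 CPM. Among males only HFD-O 23 was above every CON-O library, and male CON-O 1 at 10.1 CPM was far above the next CON-O library at 4.76 CPM. The log2 fold change was 0.92 (SE 0.39, adjusted P = 0.668) in females, 0.68 (SE 0.41, adjusted P = 0.957) in males and 0.80 (SE 0.31, adjusted P = 0.278) over both sexes.

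Cyp26b1, the enzyme that clears retinoic acid, had the least overlap of the diets in females. It lay at 3.12 to 5.92 CPM in female CON-O (median 3.84) and 4.56 to 8.60 CPM in female HFD-O (median 6.05), and at 3.16 to 12.2 CPM in male CON-O (median 4.85) and 3.05 to 12.4 CPM in male HFD-O (median 8.24). All 6 females of HFD dams exceeded the control median and 5 of them exceeded every control, which none of the other members reached in either sex. The female log2 fold change was 0.63 (SE 0.18, adjusted P = 0.349) and the male 0.49 (SE 0.32, adjusted P = 0.957). Over both sexes it was 0.56 (SE 0.20, adjusted P = 0.238).

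Rarb, the receptor, had the narrowest range of the 7, with 1.67-fold between the highest and the lowest library (31 to 65 counts). It lay at 4.99 to 7.31 CPM in female CON-O (median 5.88), 5.66 to 8.13 in female HFD-O (median 7.26), 4.90 to 6.33 in male CON-O (median 5.34) and 4.88 to 8.01 in male HFD-O (median 6.25). The groups overlapped in each sex, and 5 of 6 pups of HFD dams exceeded the control median in each. The log2 fold change was 0.24 (SE 0.14) in females and 0.24 (SE 0.14) in males, and the difference between the sexes was −0.00 (SE 0.19). Over both sexes it was 0.24 (SE 0.09, adjusted P = 0.276).

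**Figure D1:**
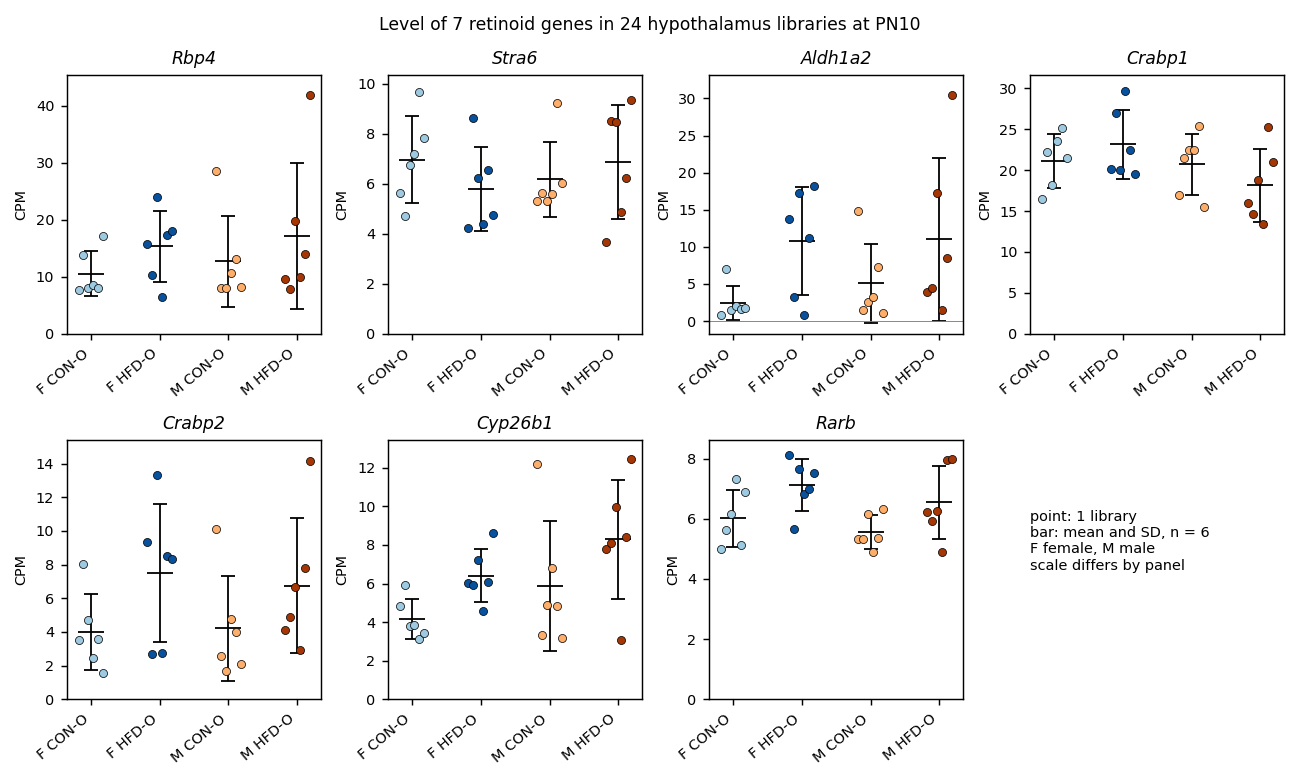
Level of each gene in CPM (y axis, linear, a scale for each panel) in the 6 libraries of each sex and diet (x axis), with points for libraries and bars for the mean and SD. Aldh1a2 spans 0.805 to 30.4 CPM and Rarb 4.88 to 8.13 CPM, and the diet groups overlap in every panel.

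By the exact two-sided permutation test of mean log2(CPM + 1) within a sex, whose smallest possible P is 0.00216, the female groups gave 0.0130 for Cyp26b1, 0.0303 for Aldh1a2, 0.0606 for Rarb, 0.126 for Crabp2, 0.162 for Rbp4, 0.242 for Stra6 and 0.379 for Crabp1. In males the values ran from 0.108 (Rarb) to 0.662 (Stra6). These P values are not adjusted for the 14 tests.

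In the fits across all genes, 0 of the 7 members had an adjusted P under 0.05 in females, males, both sexes together or the difference between the sexes. That rule called 0% of 11409 genes in females, 0% of 11476 in males, 0.163% of 11630 over both sexes (19 genes) and 0% for the difference between the sexes. The 0 calls stood beside 808 of 11409 genes with an unadjusted P under 0.05 in females, 566 of 11476 in males and 178 of 11630 for the difference. With no difference in any gene a share of 0.05 would be expected, and of these only the female count was above it. The likelihood ratio test called 0.438% of genes in females (50), Aldh1a2 among them, and 0 in males, and DESeq2 called 20 in females, 1 in males and 0 for the difference. With an unadjusted P under 0.05 and a higher level in HFD-O there were 3 of 7 members in females, against 4.51% of all genes, 0 of 7 in males, against 2.76%, and 4 of 7 over both sexes, against 7.21%. No member had an unadjusted P under 0.05 with a lower level. The members were chosen with earlier results of these libraries known, so these counts are a description. The median log2 fold change of the members was 0.55 in females, 0.43 in males and 0.49 over both sexes, where the median of all genes was −0.00 in each.

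Between pups of the same sex and diet the members differed widely in their spread. The biological coefficient of variation, which is the spread between libraries beyond counting error, was 0.781 for Aldh1a2, 0.504 for Crabp2, 0.434 for Rbp4 and 0.310 for Cyp26b1, each at or above the 98.1 percentile of all genes. The 500 genes nearest in level to each of them had medians of 0.108 to 0.147. For Stra6 it was 0.224 and for Crabp1 0.161, above the medians of 0.140 and 0.0911 for genes of their level. For Rarb it was 0.0832, below the median of 0.141 for genes of its level.

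The covariation of the members was measured over the 24 libraries on log2(CPM + 1) with the mean of each sex and diet group removed, and tested by 100000 permutations within groups, adjusted over a family of 77 relations (21 pairs of members and 56 relations of a member with a marker score). Of the 21 pairs 6 had an adjusted P under 0.05, all among Aldh1a2, Rbp4, Crabp2 and Cyp26b1. Aldh1a2 and Rbp4 had an r of 0.880 (rho 0.905, adjusted permutation P = 0.000308 for both), and Aldh1a2 and Crabp2 an r of 0.862 (rho 0.855, adjusted permutation P = 0.000257 for r and 0.000192 for rho). The synthesising and the degrading enzyme, Aldh1a2 and Cyp26b1, had an r of 0.785 (rho 0.754, adjusted permutation P = 0.000330 for r and 0.000550 for rho). The remaining pairs gave 0.748 for Crabp2 with Cyp26b1 (rho 0.743), 0.745 for Crabp2 with Rbp4 (rho 0.741) and 0.671 for Cyp26b1 with Rbp4 (rho 0.610), with adjusted permutation P of 0.000330, 0.00248 and 0.00973 for r and 0.000513, 0.00183 and 0.0125 for rho.

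All 6 relations were positive in each sex alone, with r of 0.527 to 0.842 in females and 0.736 to 0.913 in males, and without the 2 libraries farthest from the median of the first gene they lay between 0.611 and 0.839. In females alone the unadjusted permutation P was 0.0849 for Crabp2 with Rbp4 and 0.0982 for Cyp26b1 with Rbp4. Male HFD-O 23 was the highest of all 24 in all 4, at 30.4 CPM for Aldh1a2, 41.9 for Rbp4, 14.2 for Crabp2 and 12.4 for Cyp26b1. Male CON-O 1 and female HFD-O 24 were among the 6 highest in all 4, and male CON-O 3 was among the 6 lowest in all 4. Other libraries ranked unevenly, as male HFD-O 15 was at rank 6 for Cyp26b1 and 22 for Rbp4, and female CON-O 12 at rank 7 for Rbp4 and 24 for Crabp2.

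The other 15 pairs had r between −0.07 and 0.40. Rarb had r of 0.40 with Aldh1a2 and 0.39 with Rbp4, with adjusted permutation P of 0.300 and 0.331, and Stra6 had r of 0.36 with Crabp1 (adjusted permutation P = 0.368). Crabp1 had r between −0.46 and −0.60 with the 4 covarying genes in females and between 0.28 and 0.46 in males, so that its pooled values near 0 join opposite signs; the difference of these r between the sexes was not tested.

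**Figure D2:**
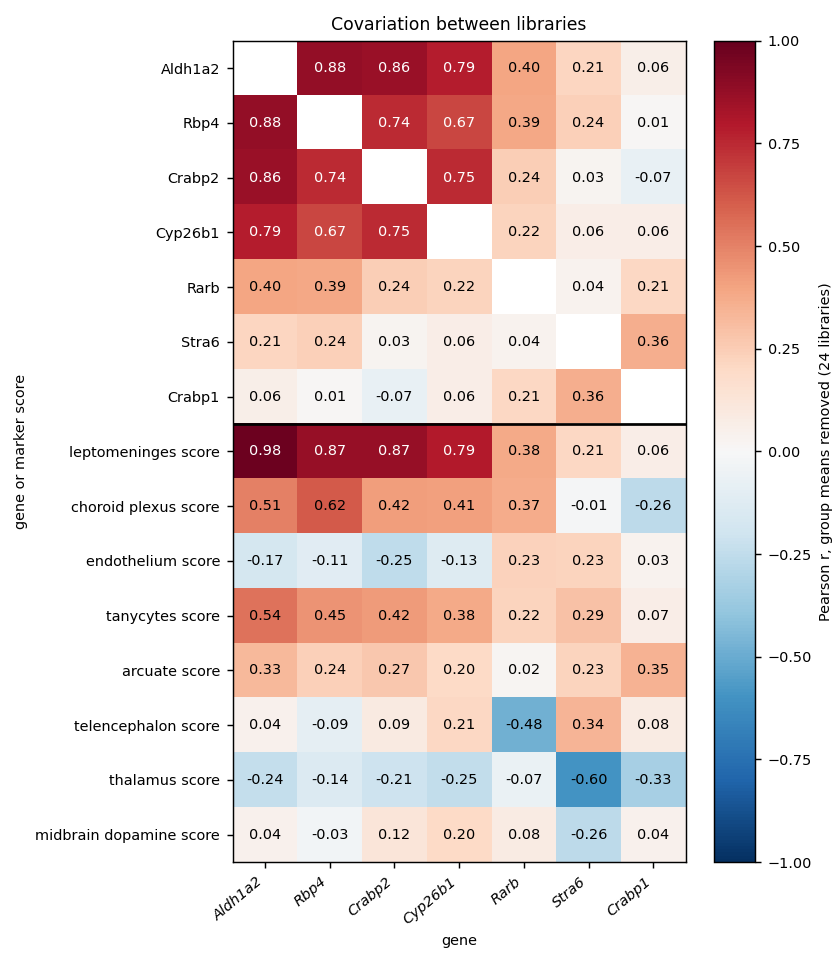
Pearson r over 24 libraries, group means removed, between members (upper block) and between members and 8 marker scores (lower block), with red for positive and blue for negative values. Aldh1a2, Rbp4, Crabp2 and Cyp26b1 form a block of r from 0.671 to 0.880, and their r with the leptomeninges score is 0.793 to 0.978.

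Marker scores, each the mean log2(CPM + 1) of a list of genes with the members left out, were set beside the members in the same libraries. The leptomeninges score (32 genes, among them the solute carriers Slc6a13 and Slc13a4, the collagens Col1a1 and Col3a1, and Igf2) had an r of 0.978 with Aldh1a2 (rho 0.957), 0.874 with Rbp4 (rho 0.862), 0.872 with Crabp2 (rho 0.848) and 0.793 with Cyp26b1 (rho 0.670). The P of r for Aldh1a2 and Crabp2 was 1e-05, the smallest these permutations can give, and the adjusted permutation P of all 4 was at most 0.000385 for r and 0.00565 for rho. For Aldh1a2, 95.6% of its variance between libraries of a group was shared with the score, and without libraries 1 and 23, which lay farthest out on the score, r was 0.975. The same r without these libraries was 0.799 for Rbp4, 0.813 for Crabp2 and 0.688 for Cyp26b1. The members and the leptomeninges list were chosen with earlier results of these libraries known. The r, permutation P and shared variance given for this score are therefore a description and not independent evidence of a relation.

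Rarb, Stra6 and Crabp1 had r of 0.382, 0.206 and 0.0644 with this score, and none passed (adjusted permutation P of 0.310, 0.618 and 0.931). Per unit of the score, log2(CPM + 1) was higher by 1.83 for Aldh1a2, 1.01 for Crabp2, 0.922 for Rbp4, 0.595 for Cyp26b1 and 0.111 for Rarb. Aldh1a2 was thus the steepest of the members along the score and Rarb stood near the flat end. In bulk tissue, fewer cells of a type and less RNA per cell cannot be told apart.

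**Figure D3:**
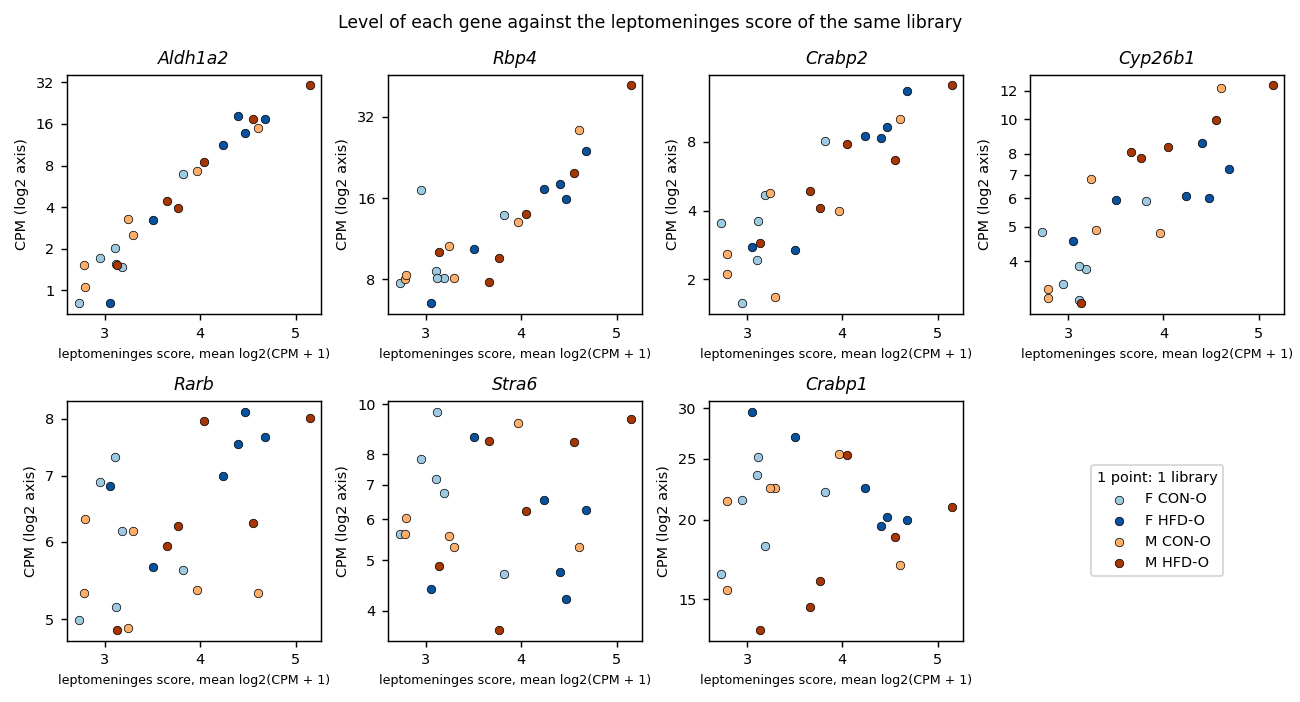
CPM of each gene (y axis, log2 scale, its own range in each panel) against the leptomeninges score of the same library (x axis, mean log2(CPM + 1) of 32 genes), with 1 point for each of 24 libraries coloured by sex and diet. Aldh1a2 follows the score from 0.805 to 30.4 CPM, and for Rbp4 the library female CON-O 12 lies at 17.1 CPM away from the others of its score.

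Rbp4 alone of the members also passed with the choroid plexus score (11 genes), with an r of 0.615 (rho 0.603, adjusted permutation P = 0.00639 for r and 0.0176 for rho), and r was 0.619 without the 2 farthest libraries, female HFD-O 22 and female CON-O 12. Aldh1a2, Crabp2 and Cyp26b1 had r of 0.507, 0.419 and 0.407 with this score (adjusted permutation P of 0.0698, 0.233 and 0.0885). Without the same 2 libraries their r was 0.622, 0.663 and 0.599, near that of Rbp4. The relation was thus not particular to Rbp4. The choroid plexus makes cerebrospinal fluid and Ttr, the carrier that binds RBP4 in blood and cerebrospinal fluid, is its defining gene. Ttr had 115 counts in female CON-O 12 and 0 to 5 counts in the other 23 libraries. In those 23 the score rests almost wholly on its other genes, of which Kcnj13 was also at 0 in some library. How far the score follows choroid plexus tissue was not tested. In female CON-O 12 Rbp4 was at 17.1 CPM, the highest of female CON-O, while Aldh1a2 was at 1.72 CPM. Without it the female log2 fold change of Rbp4 was 0.74 in place of 0.55. Stra6 was lower where a thalamus score (7 genes) was higher, with an r of −0.60 (rho −0.64, adjusted permutation P = 0.0261 for r and 0.0160 for rho), and r was −0.48 without libraries 9 and 23. The remaining scores, for endothelium, tanycytes, arcuate nucleus, telencephalon and midbrain dopamine cells, gave no relation with an adjusted P under 0.05.

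The genes closest to each member in this covariation, among 11629 others, are given as a description. They were Slc13a4 (r 0.979), Slc6a13 (0.975) and Osr1 (0.973) for Aldh1a2, Mpzl2 (0.936), Slc13a4 (0.910) and Gstm2 (0.908) for Rbp4, Wnt6 (0.943), Sult1a1 (0.914) and Cdh1 (0.910) for Crabp2, and Adamts7 (0.849), Ppp1r3b (0.844) and Sned1 (0.831) for Cyp26b1. Of the 30 closest genes, 15 for Aldh1a2, 13 for Rbp4, 13 for Crabp2 and 10 for Cyp26b1 were on the leptomeninges list. That list held 32 of the 11630 genes tested over both sexes and was chosen with earlier results of these libraries known. For the other members none of the 30 was on it, and the closest were Eml1 (0.843), Itgam (0.792) and Map4 (0.712) for Rarb, Ano1 (0.776), Rnase4 (0.766) and Kdsr (0.764) for Stra6, and Zfp35 (0.688), Sall2 (0.664) and Cbr3 (0.644) for Crabp1. Slc6a13 and Slc13a4 carry small solutes across membranes, and Itgam encodes an integrin of microglia and other myeloid cells.

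The leptomeninges score had a higher mean in HFD-O in both sexes, past the exact test in females only, and the difference between the sexes was not tested. The score was 3.15 ± 0.366 in CON-O and 4.06 ± 0.636 in HFD-O females (SD, n = 6 each, exact permutation P = 0.0216) and 3.45 ± 0.713 and 4.05 ± 0.712 in males (exact permutation P = 0.171). The summed level of the 32 genes ran from 329 to 1130 CPM in female CON-O, 495 to 2253 in female HFD-O, 373 to 2238 in male CON-O and 487 to 3332 in male HFD-O, and of the 32 genes Slc22a2 and Slc47a1 were at 0 in some library. Over both sexes 31 of the 32 were higher in HFD-O, 29 of them with an unadjusted P under 0.05 (7.21% of all genes) and 0 with an adjusted P under 0.05 (0.163% of all genes). Markers of blood cells and vessels also had higher levels in HFD-O. All 6 erythroid genes, among them the globins Hbb and Hba1, were higher over both sexes with an unadjusted P under 0.05 (median log2 fold change 1.00, and 1.40 in females), and their summed level ran from 654 to 1981 CPM in female CON-O, 790 to 6299 in female HFD-O, 543 to 3674 in male CON-O and 559 to 5873 in male HFD-O. Of 9 endothelium genes 9 were higher, 5 with an unadjusted P under 0.05, and the endothelium score differed by 0.213 in females (exact permutation P = 0.0368) and 0.163 in males (exact permutation P = 0.139). None of these lists had a gene with an adjusted P under 0.05. The leptomeninges, erythroid and endothelium lists were chosen with earlier results of these libraries known. Their counts and exact P values are therefore a description and not independent evidence of a diet difference. The endothelium score had r of −0.25 to −0.11 with Aldh1a2, Rbp4, Crabp2 and Cyp26b1, and the part of blood cells in the members' values was not tested. The 18 hypothalamus markers measured were above 0 in every library, with a sum of 807 to 1115 CPM. In HFD-O 8 of them were higher and 10 lower over both sexes (median log2 fold change −0.04). In females 5 were higher and 13 lower (median −0.07), and in males 7 and 11. Of 11 neuron markers 2 were higher and 9 lower over both sexes (median −0.07). Of all genes 49.0% were higher over both sexes and 49.4% in females. The part of tissue content in these values was not tested.

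With the leptomeninges score added to the fit, the diet estimate of Aldh1a2 was −0.37 (SE 0.30) in females, −0.04 (SE 0.17) in males and −0.04 (SE 0.17) over both sexes, in place of 2.15, 1.11 and 1.63. Crabp2 went to −0.61 in females, 0.06 in males and −0.15 over both sexes, and Rbp4 to −0.32, −0.28 and −0.36. Cyp26b1 kept a positive sign at 0.25, 0.04 and 0.05, and so did Rarb at 0.10, 0.17 and 0.14, the last with an SE of 0.11. The score itself had a higher mean in HFD-O in each sex and is read from the same libraries. This fit therefore gives the estimate at equal score and does not say which of the members' RNA came from which cells.

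**Figure D4:**
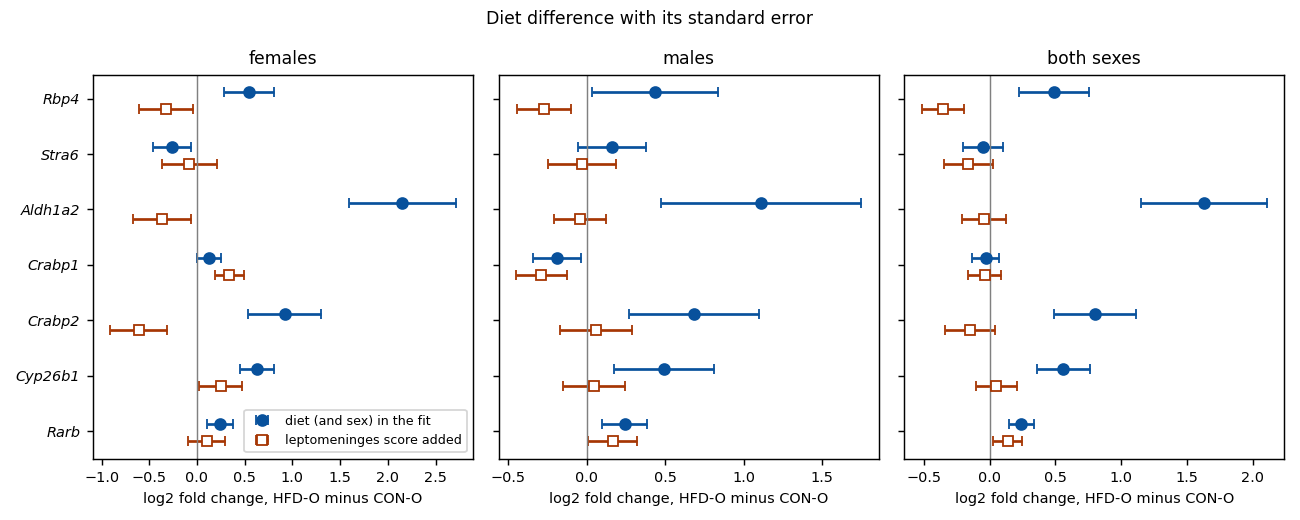
Log2 fold change of HFD-O over CON-O (x axis) with its standard error for each gene (y axis) in females, males and both sexes, from the fit on diet (filled circles) and with the leptomeninges score added (open squares), each panel on its own scale. The estimate of Aldh1a2 over both sexes is 1.63 without and −0.04 with the score, and that of Rarb 0.24 and 0.14.

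The rest of the pathway was read from a list of 37 other retinoid genes measured, of which 22 were tested in females, 23 in males and 23 over both sexes. Over both sexes 14 were higher and 9 lower in HFD-O, 6 had an unadjusted P under 0.05 in the higher direction (background 7.21%) and 0 in the lower, and their median log2 fold change was 0.03. With an adjusted P under 0.05 there was 1, Rarres2, the gene of chemerin, a secreted attractant of immune cells whose gene responds to retinoids, which rose by 0.90 (SE 0.18, adjusted P = 0.0350). Its mean was 2.08 CPM in CON-O and 4.00 in HFD-O females, and 2.13 and 3.86 in males, with CON-O libraries between 1.32 and 3.44 CPM and HFD-O libraries between 2.44 and 7.64 CPM. The call was lost with the leptomeninges score in the fit (0.50, adjusted P = 0.196) and with a correlation of consecutive libraries (0.87, adjusted P = 0.217 by limma-voom with an estimated correlation). It held in 13 of the 24 fits that left out 1 library (adjusted P from 0.0289 to 0.0804) and was lost without any one of libraries 2, 3, 5, 6, 7, 12, 14, 16, 17, 18 and 22.

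Of the 7 targets of retinoic acid tested beside the members, Rarres2 included, 4 were higher and 3 lower over both sexes. Their median log2 fold change was 0.09, and those named here had the smallest P. Tgm2, which encodes a transglutaminase, had a log2 fold change of 0.40 (SE 0.11, adjusted P = 0.116). Dhrs3, which turns retinaldehyde back into retinol, had 0.26 (SE 0.10, adjusted P = 0.273). In synthesis, Aldh1a1, a sister enzyme of Aldh1a2 that is also a marker of midbrain dopamine cells, had 0.91 (SE 0.49) in females, 1.71 (SE 0.47) in males and 1.31 (SE 0.38, adjusted P = 0.135) over both sexes, from 35 to 504 counts. Of the 5 other tested genes on the list of midbrain dopamine markers, 3 (Th, Slc6a3 and Chrna6) had an unadjusted P under 0.05 in the higher direction over both sexes, where 7.21% of all genes did, and 0 an adjusted P under 0.05. The median log2 fold change of these 5 was 0.70. The midbrain list too was chosen with earlier results of these libraries known, so its count is a description. The part of midbrain tissue in the Aldh1a1 values was not tested.

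Of the receptors beside Rarb, namely Rara, Rarg, Rxra, Rxrb and Rxrg, 0 of 5 had an unadjusted P under 0.05 over both sexes and their log2 fold changes lay between −0.05 and 0.03, with SE of 0.04 to 0.10. Cyp26a1, the sister of Cyp26b1, had 0 to 1 counts, and Aldh1a3, the third enzyme of its kind, 0 to 7 counts, both under the filter on low counts. Differences between the diets in these were not detectable at this depth.

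Libraries with consecutive numbers (1 and 2, 3 and 4, and so on) are 1 male and 1 female of the same diet, and what else they share is not given in the sources used here. Over the 12 such pairs, with group means removed, the male and female values of Stra6 had an r of 0.630 (rho 0.678, permutation P = 0.0414 and 0.0299, adjusted over 8 relations 0.332 and 0.147), and 0.430 without the 2 farthest pairs. Those of Cyp26b1 had an r of 0.516 (rho 0.629, adjusted permutation P = 0.425 and 0.147) and 0.235 without the 2 farthest. Those of Aldh1a2 had an r of 0.370 (rho 0.245, adjusted permutation P = 0.662 and 0.603). The pooled values joined unlike ones, as Aldh1a2 had an r of −0.60 in the 6 CON-O pairs and 0.81 in the 6 HFD-O pairs, and Cyp26b1 0.13 and 0.93. These differences between the diets were not tested. No relation passed the adjustment. A limma-voom fit took a correlation between consecutive libraries estimated over all genes (0.315). Its diet estimates over both sexes were 1.49 for Aldh1a2, 0.81 for Crabp2, 0.58 for Cyp26b1 and 0.24 for Rarb. The adjusted P of this limma-voom fit were 0.598, 0.612, 0.548 and 0.618, and 1 gene of all was called in place of 19. It differs from the main fit in the test as well as in the correlation.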

How the data were processed

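RNA from the hypothalamus of 24 pups was sequenced, and the submitters' notes name FastQC, TopHat, edgeR and genome build rn6, while the methods name Trimmomatic and Bowtie2. For the read counter, the annotation and the strand setting no source used here gives a name, and reads of overlapping or near-identical genes cannot be told apart. The authors deposited a table for each sex with whole-number counts per gene, which gave every value here. Another block of 24 columns of per-sample values and the authors' comparison columns (log fold change, log CPM, likelihood ratio, P, adjusted P, dispersion and total) were not used. Spreadsheet dates stand in place of 23 gene names in the female table and 24 in the male table.

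Counts were filtered with filterByExpr (minimum count 10, minimum total 15), leaving 11409 genes in females, 11476 in males and 11630 over both sexes, scaled by TMM and tested with the quasi-likelihood test of edgeR 4.0.16 (R 4.3.3) with Benjamini-Hochberg adjustment over all genes kept, called at 0.05. The fit over both sexes held sex, diet and their interaction. Levels for permutation tests and covariation were log2(CPM + 1), computed with scipy 1.17.1 and numpy 2.4.6. The total counts per library were 6132112 to 7994399, and the lowest member value rests on 5 counts. Alternatives were the likelihood ratio test, DESeq2 1.42.0, limma-voom 3.58.1, relative log expression (RLE) scaling, no filter, each library left out, the leptomeninges score in the fit, a pseudocount of 0.5 and, in limma-voom, a correlation of consecutive libraries. The relation of male and female values of consecutive libraries was added after the data were seen. The fits were tested on simulated data. Named genes were the 7 members, up to 4 of each retinoid list with the smallest P or highest level, and for each member the 3 genes with the highest r. The members, lists and tests were chosen with earlier results of these data known.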

Additional observations from a re-analysis of the deposited data

Results flagged for a closer look

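In the 28 groups of 6 libraries (7 genes in 4 groups), 5 held a library whose gap to its nearest neighbour was large for the range of its group. Chance gives about 1 in 20 groups if values are normally distributed and groups independent. The values here were CPM on a linear scale and several of the genes covary, so that rate is only a rough guide. Aldh1a2 was at 6.98 CPM in female CON-O 4, with the next of that group at 2.01 CPM. Crabp2 was at 10.1 CPM in male CON-O 1 (next 4.76), and Rbp4 was at 28.6 CPM in the same library (next 13.1). Rbp4 was at 41.9 CPM in male HFD-O 23 (next 19.8). Stra6 was at 9.21 CPM in male CON-O 9 (next 6.03). The leptomeninges score was 3.82 in female CON-O 4, the highest of its group, 4.60 in male CON-O 1, the highest of its group, and 5.15 in male HFD-O 23, the highest of all libraries, and its part in these values was not tested.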

How the results depend on the processing

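Against 0 genes called in females, the likelihood ratio test called 50, DESeq2 20 and fits without 1 library 0 to 10 (10 without HFD-O 20). Against 0 in males, DESeq2 called 1 and the fit with the leptomeninges score 1. Against 19 over both sexes, the likelihood ratio test called 93, DESeq2 93, the fit with the score 3, the limma-voom fit with a correlation of consecutive libraries 1 and those without 1 library 3 to 46. Limma-voom without that correlation, RLE scaling and no filter kept every count within 1.5 times and every direction of a member.

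With the leptomeninges score in the fit the sign changed for Aldh1a2 (−0.37 in females, −0.044 in males, −0.044 over both sexes), Crabp2 (−0.61 in females, −0.15 over both), Rbp4 (−0.32, −0.28 and −0.36) and Stra6 (−0.030 in males), and for the difference between the sexes of Crabp2 (0.27), Cyp26b1 (0.12), Rbp4 (0.25) and Rarb (0.035). The difference of Rarb was 0.0028 by the likelihood ratio test. Without 1 library, Rbp4 in males ran from −0.072 to 0.85, Crabp1 over both sexes from −0.088 to 0.0049 and Stra6 from −0.13 to 0.024. The difference between the sexes ran from −0.61 to 0.25 for Crabp2, −0.29 to 0.22 for Cyp26b1, −0.62 to 0.30 for Rbp4 and −0.072 to 0.066 for Rarb.

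Correlations that changed sign in females alone were those of Aldh1a2 with Crabp1 (−0.51), Aldh1a2 with Stra6 (−0.20), Crabp1 with Cyp26b1 (−0.60), Crabp1 with Rbp4 (−0.46), Crabp1 with Rarb (−0.21), Crabp2 with Stra6 (−0.38), Cyp26b1 with Stra6 (−0.44), Rbp4 with Stra6 (−0.012), Stra6 with Rarb (−0.26), and of the leptomeninges score with Crabp1 (−0.49) and with Stra6 (−0.21). In males alone it was that of Crabp1 with Crabp2 (0.34). With group means kept they were those of Crabp1 with Cyp26b1 (−0.073), Crabp1 with Rbp4 (−0.020), Crabp2 with Stra6 (−0.034) and Stra6 with Rarb (−0.040). All of these had an adjusted P above 0.05 over the 24 libraries. Some relations that passed over the 24 libraries had an unadjusted permutation P above 0.05 in females alone. They were Crabp2 with Rbp4 (0.0849), Cyp26b1 with Rbp4 (0.0982) and Stra6 with the thalamus score (0.137).

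The pseudocount of 0.5 moved no exact P across 0.05. The replicate numbers are unique to each library and pair no samples, so the only pairing tried was that of consecutive libraries. Depth limits Cyp26a1, Aldh1a3 and the members at their lowest, where 5 counts carry a wide counting error. What set the differences between tests was not tested.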
